A study of Mus musculus with 11 samples.

Results

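The let-7 and miR-98 family was represented by 9 of the 334 mouse miRNAs on a custom microarray. These were mmu-let-7a, mmu-let-7b, mmu-let-7c, mmu-let-7d, mmu-let-7e, mmu-let-7f, mmu-let-7g, mmu-let-7i and mmu-miR-98, written below without the prefix for mouse. They were taken by name, as every plus-strand mouse spot annotated as let-7 with any letter or as miR-98, and no measured value entered the choice. Each miRNA was printed as 4 spots, so the family covered 36 of 1336 mouse spots on an array. The arrays compared normal mammary glands of different strains, to learn whether the background of a mouse changes its miRNA levels, and set mammary tumors beside them. There were 2 arrays of FVB glands, 3 of Balb/C glands and 3 of glands of the mixed background FVB129B6, all from normal females late in pregnancy, when the gland is rich in epithelium. There were also 3 arrays of primary mammary tumors of C3(1)/Tag females of the FVB strain, which carry the T antigens of a simian virus behind the 5′ flank of a rat prostate steroid binding protein gene, so that the transgene is not restricted to the mammary gland. Whether the tumor-bearing females were pregnant is not given in the sources used here. The labels number the arrays of a group and do not say that each came from its own mouse, so the p-values below measure only the spread between these arrays. The titles of 2 Balb/C arrays differ in their last letter alone, and these could be 2 glands of 1 mouse.

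The let-7 miRNAs are among the most conserved of animal miRNAs. Each is cut by Drosha and Dicer from a hairpin precursor, loaded into an Argonaute protein, and guides it to messenger RNAs through the seed, the bases near its 5′ end. Known targets include Ras genes, Hmga2 and Lin28, and Lin28 proteins in turn bind let-7 precursors and block their maturation. In most tissues the family accumulates as cells differentiate, and in the mammary gland it is known to be scarce in progenitor cells and to restrain self-renewal.

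All 9 members matched a mature sequence in RefSeq (GRCm38.p6), each 22 bases long. They are shown because every result below turns on probes that tell apart miRNAs with 1 seed and a few differing bases further on. The seed, bases 2 to 8, is in capitals.
let-7a: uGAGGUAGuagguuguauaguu
let-7b: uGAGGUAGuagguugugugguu
let-7c: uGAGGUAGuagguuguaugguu
let-7d: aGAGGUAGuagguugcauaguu
let-7e: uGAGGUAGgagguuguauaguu
let-7f: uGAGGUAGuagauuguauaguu
let-7g: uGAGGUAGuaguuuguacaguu
let-7i: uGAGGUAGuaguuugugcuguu
miR-98: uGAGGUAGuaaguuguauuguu

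All 9 share the seed GAGGUAG, so the family has 1 seed group. Counted from 1 at the 5′ end and with let-7a as reference, let-7c differs by A19G, let-7e by U9G and let-7f by G12A, a single base each. let-7b differs by A17G and A19G, let-7d by U1A and U16C, let-7g by G12U and U18C, and miR-98 by G11A and A19U. let-7i is the most distant from let-7a, with G12U, A17G, U18C and A19U. Of the 36 pairs of members, 4 differ by 1 base and 10 by 2 over the bases that their probes pair with, and the widest pair, let-7d and let-7i, differs by 6. The nearest probe outside the family differs from a member's probe by 8 to 11 of 21 bases. How much of the signal of one member's spots came from another member was not tested.

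The 9 mature miRNAs come from 12 hairpins in RefSeq GRCm38.p6, so that an array signal for let-7a, let-7c or let-7f sums 2 genes. On chromosome 13 the hairpins of let-7a-1 (chr13:48538179-48538272), let-7f-1 (chr13:48537829-48537917) and let-7d (chr13:48536012-48536114) lie side by side on the minus strand. On chromosome 15, let-7c-2 (chr15:85706603-85706697) and let-7b (chr15:85707319-85707403) lie on the plus strand inside the long noncoding RNA gene Lncppara. On the X chromosome, let-7f-2 (chrX:151912346-151912428) and miR-98 (chrX:151913214-151913321) lie inside the protein-coding gene Huwe1. let-7e (chr17:17830352-17830444) lies inside Spaca6 beside the hairpin of miR-125a, and let-7g (chr9:106178840-106178927) inside Wdr82. let-7a-2 (chr9:41536716-41536811) lies inside the host gene Mir100hg with miR-100, let-7c-1 (chr16:77599657-77599750) beside miR-99a, and let-7i (chr10:122985640-122985724) has no miRNA gene beside it. The probes cannot tell apart the 2 loci of let-7a, let-7c or let-7f.

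The array facts that bear on the family are these. A level is the log2 green signal of a miRNA minus the median of its array, averaged over its spots, so that 0 is the array median. A miRNA was called well above background on an array when at least 50% of its spots were, which held for 209 to 262 miRNAs on the 8 gland arrays and for 15 to 64 on the 3 tumor arrays. For FVB the median signal that sets the scale was 245.5 and 188.5, for the other glands 508 to 671.5 and for the tumors 125 to 170. The FVB arrays filled a slide column of their own. The tumor arrays were on another slide and were read with another version of the program than the glands, so tumor and slide cannot be told apart.

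In the normal glands the whole family was measured with ease. All 9 members passed the background limit with all 4 spots on each of the 8 gland arrays, and the spots of a member on a gland array differed by an SD of 0.01 to 0.11 on the log2 scale. let-7a had levels of 8.71 and 8.89 on the FVB arrays, 7.89, 8.01 and 8.13 on the Balb/C arrays, and 7.91, 7.94 and 8.10 on the FVB129B6 arrays. let-7c, which differs from it by 1 base, had levels of 8.86 and 9.04 in FVB, 8.08, 8.05 and 8.29 in Balb/C, and 8.03, 8.06 and 8.27 in FVB129B6. On both, the FVB arrays were above every other gland array, and the Balb/C and FVB129B6 arrays overlapped.

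let-7g, whose hairpin lies apart from the let-7 clusters, had levels of 7.57 and 7.39 in FVB, 6.39, 6.78 and 6.43 in Balb/C, and 6.27, 6.43 and 6.47 in FVB129B6. let-7d had levels of 7.41 and 7.49 in FVB, 6.50, 6.48 and 6.59 in Balb/C, and 6.52, 6.53 and 6.69 in FVB129B6. The gap between FVB and the other glands was wider than the spread within any strain for each of them. This held for let-7f too (8.30 and 8.04 in FVB, 7.42 to 7.67 in the other glands). For let-7b (8.16 and 8.44 against 7.36 to 7.78), let-7e (5.19 and 5.93 against 4.40 to 4.91) and let-7i (6.72 and 7.28 against 6.30 to 6.61) both FVB arrays were also the highest, but the gap was narrower than the spread within a strain. miR-98 was the exception, with 1 FVB level of 3.91 above and the other, 3.20, within the 3.08 to 3.53 seen in the other glands.

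**Figure D1:**
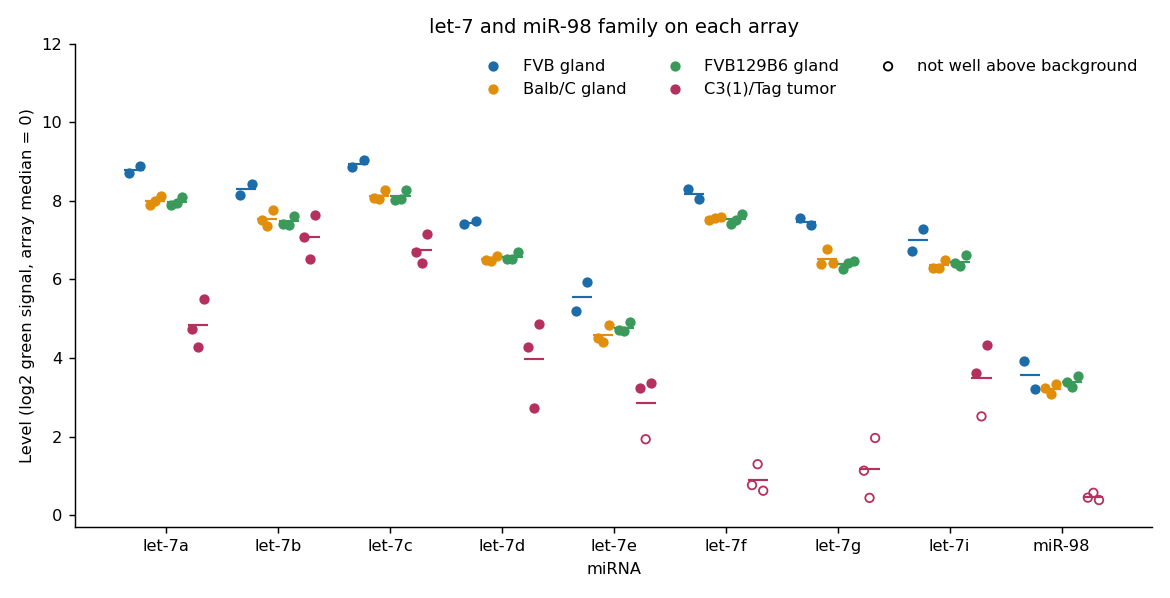
Level of each family member on each array (log2 green signal, 0 is the array median), with 2 FVB, 3 Balb/C and 3 FVB129B6 gland arrays and 3 C3(1)/Tag tumor arrays. Points are arrays, short lines are group means, and open points mark arrays on which the miRNA was not well above background, as let-7f, let-7g and miR-98 were on all 3 tumor arrays.

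The comparison of Balb/C with FVB glands asked whether strain alters the family. With the array median as scale, 8 of 9 members were lower in Balb/C and none was higher, where 32.2% of the 261 miRNAs tested were lower and 5.75% higher. The log2 difference was -0.98 for let-7e (standard error 0.25, adjusted p = 0.0208), -0.95 for let-7g (standard error 0.18, adjusted p = 0.00798) and -0.93 for let-7d (standard error 0.15, adjusted p = 0.00543), by limma with the Benjamini-Hochberg method over all miRNAs tested. let-7a, let-7b and let-7c differed by -0.79, -0.75 and -0.81, and let-7f and let-7i by -0.61 and -0.63. miR-98 differed by -0.34 (95% interval -0.88 to 0.21) and was not called. Against the FVB arrays, every Balb/C array was lower for 8 members, and this held for 45.2% of all miRNAs tested.

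Between FVB129B6 and FVB glands the picture was close to that, and the 2 comparisons share the FVB arrays. Here 7 of 9 members were lower in FVB129B6, against 31.4% of the 261 miRNAs tested, and none was higher, against 8.05%. let-7g had the widest difference of the family at -1.09 (standard error 0.18, limma, adjusted p = 0.00380). let-7a, let-7b, let-7c, let-7d and let-7e differed by -0.82, -0.82, -0.83, -0.87 and -0.79, and let-7f by -0.64. let-7i at -0.54 (adjusted p = 0.0706, limma) and miR-98 at -0.16 (adjusted p = 0.606, limma) were not called. Every FVB129B6 array was below both FVB arrays for 8 members, and for 49.0% of all miRNAs tested. Over the 3 strains at once, limma's F-test called 7 of 9 members, all but let-7i and miR-98, where 46.0% of all miRNAs were called.

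Between Balb/C and FVB129B6 glands no member was called. limma's contrast called 0 of 9 members, 0 had an unadjusted p under 0.05, and 3.45% of the 261 miRNAs were called. The differences ran from -0.19 for let-7e to 0.14 for let-7g, and the narrowest 95% interval, that of let-7d, ran from -0.37 to 0.26. Differences within such an interval were not detectable with these arrays.

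**Figure D2:**
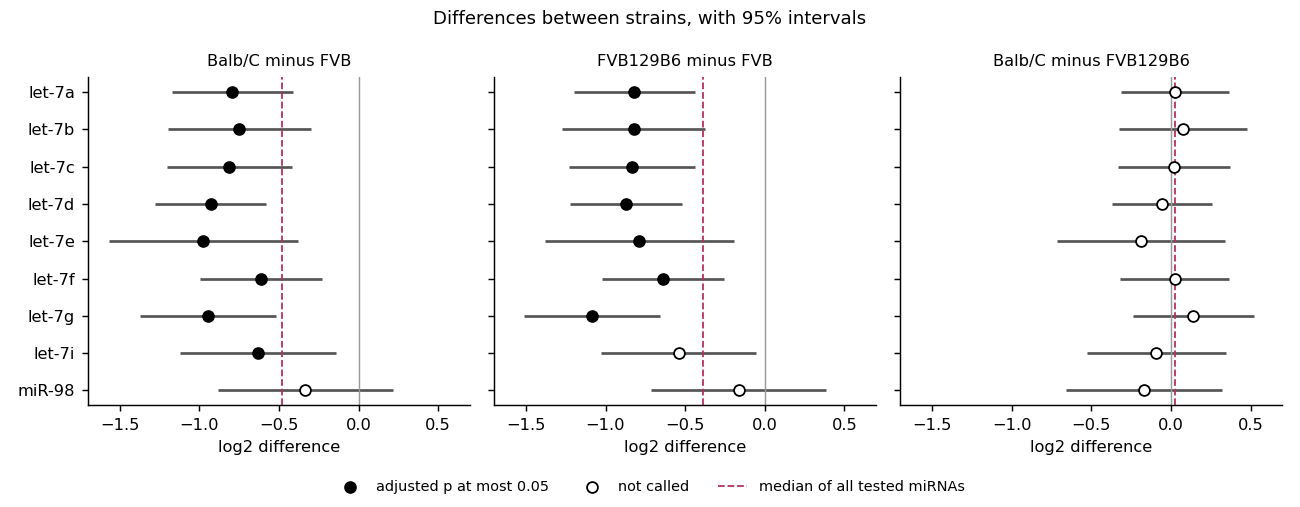
Log2 difference of each family member between strains of mammary gland, as Balb/C minus FVB, FVB129B6 minus FVB and Balb/C minus FVB129B6, with 95% intervals from limma. Filled points passed an adjusted p of 0.05, and the dashed line is the median of the 261 miRNAs tested, at -0.48, -0.39 and 0.03.

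The strain calls depended on how the arrays were put on 1 scale. The median over all 261 miRNAs tested was itself -0.48 for Balb/C minus FVB and -0.39 for FVB129B6 minus FVB, against -0.79 and -0.82 over the 9 members. With the 75th percentile of each array as scale instead, those 2 medians over all miRNAs were -0.05 and -0.03, and those over the family -0.36 and -0.45. This scale moves each array by 1 constant, so it cannot change the gap between the family and all miRNAs. Then 0 members were called in Balb/C (4 had an unadjusted p under 0.05) and 2, let-7d and let-7g, in FVB129B6, both lower. let-7g differed from FVB by -0.51 in Balb/C (adjusted p = 0.0629) and by -0.72 in FVB129B6 (adjusted p = 0.0207) on that scale, from limma with Benjamini-Hochberg adjustment. In processed green intensity, before any scaling between arrays, the FVB arrays were the dimmer ones. let-7a had a mean green intensity of 96262.5 in FVB, 141833 in Balb/C and 145917 in FVB129B6, the opposite order to its scaled levels. With the 75th percentile as scale 8 of 9 members remained lower than FVB in each strain, and with normexp 6 of 9. With quantile normalization the medians for Balb/C and FVB129B6 were -0.07 and -0.09 over all miRNAs, and -0.18 and -0.09 over the family. With normexp they were -0.09 and -0.09 over all miRNAs, and -0.08 and -0.10 over the family, so the gap was small or absent. With the array median, 4 and 5 members were called in Balb/C without Balb/C replicate 1 or 2, and the F-test called 4 without FVB129B6 replicate 1 or 2 and 3 without FVB replicate 2.

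A balance within the family needs no scale between arrays, since each array's signals are set against one another. Relative to the mean of let-7a, let-7b, let-7c and let-7d on the same array, let-7c stayed between 0.56 and 0.60 on all 8 gland arrays and let-7a between 0.40 and 0.53. let-7d was at -0.87 and -0.98 in FVB and at -1.11 to -0.95 in the other glands. let-7e, let-7f, let-7g, let-7i and miR-98 varied more, over ranges of 0.56, 0.52, 0.57, 0.53 and 1.19 among the 8 gland arrays, of which the 2 FVB arrays alone spanned 0.56, 0.44, 0.36, 0.38 and 0.89. For all 9 members the range of the FVB arrays overlapped with that of the other glands, so no member stood apart from let-7a to let-7d by strain.

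Several members share a transcript with another miRNA, and these neighbours were followed by name. miR-99b and miR-125a, encoded with let-7e, moved in the direction of let-7e. miR-125a had levels of 5.55 and 6.05 in FVB, 4.32 to 4.67 in Balb/C and 4.18 to 4.49 in FVB129B6, differences of -1.29 (adjusted p = 0.00586) and -1.42 (adjusted p = 0.00363) from FVB by limma. miR-99b differed by -0.96 (adjusted p = 0.0109) and -0.85 (adjusted p = 0.0132). Both calls of miR-99b were lost with the 75th percentile (limma adjusted p = 0.0692 and 0.0799), with quantile normalization (0.118 and 0.418) and with normexp (0.577 and 0.727). Those of miR-125a were lost with green over red (limma adjusted p = 0.127 and 0.361) and, in Balb/C, with normexp (0.0553), and with all 11 arrays in the fit no call of either was left. The neighbours of let-7a-2 and let-7c-1 did not show such a gap.

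miR-100, encoded with let-7a-2, had levels of 4.51 and 4.12 in FVB, 4.16 to 4.42 in Balb/C and 4.22 to 4.46 in FVB129B6, so the 3 strains overlapped. Its differences from FVB were -0.01 (adjusted p = 0.968, 95% interval -0.45 to 0.43) and -5.57e-05 (adjusted p = 1.00), against -0.79 and -0.82 for let-7a. miR-99a, beside let-7c-1, differed by -0.16 (adjusted p = 0.512) and -0.26 (adjusted p = 0.280), and miR-125b, which has a copy near let-7a-2, by -0.13 (adjusted p = 0.678) and -0.39 (adjusted p = 0.189), all from limma's contrasts. The difference between neighbours was not tested, and on the 75th percentile scale miR-99a and miR-100 came out higher than in FVB in both strains, as did miR-125b in Balb/C, and none was called.

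The 5 other miRNAs whose pattern over the 8 gland arrays lay closest to the family's were miR-484, miR-34c, miR-23b, miR-24 and miR-30a-5p. Likeness was the root mean square difference between a miRNA's centred log2 levels and the mean centred levels of the 9 members, over 195 candidates well above background on all 8 arrays. It was 0.06 for miR-484 and 0.09 to 0.11 for the other 4, against a median of 0.38 over the candidates and 0.05 to 0.30 for the members themselves. miR-484 averaged 2.89 ± 0.17 over the 2 FVB arrays, 2.10 ± 0.05 over the 3 of Balb/C and 2.10 ± 0.15 over the 3 of FVB129B6 (mean level ± SD). miR-24, encoded in a cluster with miR-23b, averaged 7.98 ± 0.03, 7.31 ± 0.04 and 7.20 ± 0.09 in the same order. These were chosen for their likeness, and the points share the arrays and their scale.

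Lists of miRNAs known from single tissues were summed on each array, with no test. The summed level of the 3 skeletal muscle miRNAs with a probe (miR-1, miR-133b and miR-206) was 3.64 to 6.02 in FVB, 9.17 to 9.97 in Balb/C and 8.45 to 8.62 in FVB129B6. The 3 red cell miRNAs (miR-144, miR-451 and miR-486) summed to 9.53 to 9.61 in FVB, 7.67 to 8.72 in Balb/C and 6.83 to 7.39 in FVB129B6. Epithelial miRNAs, the miR-200 family with miR-203 and miR-205, summed to 8.77 to 9.80 in FVB, 8.06 to 8.94 in Balb/C and 8.90 to 9.27 in FVB129B6, with all 7 well above background on every gland array. The 4 leukocyte miRNAs spanned 5.93 to 6.16, 5.27 to 8.40 and 5.33 to 5.68 in the same order, and the 4 stromal ones 9.57 to 10.21, 9.12 to 9.54 and 9.18 to 9.43. In whole tissue, fewer cells of a type and less RNA per cell cannot be told apart, and the part of tissue makeup in the strain differences of the family was not tested.

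In the C3(1)/Tag tumors the members differed in how well they were measured. let-7a, let-7b, let-7c and let-7d were well above background on all 3 tumor arrays, let-7e and let-7i on 2 (not on tumor 2), and let-7f, let-7g and miR-98 on none. Only 15 of the 334 miRNAs were well above background on all 3 tumor arrays, and these 4 members were among them. let-7b had levels of 7.08, 6.52 and 7.64 in tumors 1 to 3, which overlapped with the 7.36 to 8.44 of the glands. let-7c had 6.69, 6.42 and 7.15, below every gland array, and let-7a 4.73, 4.29 and 5.51. let-7d had 4.28, 2.73 and 4.87, with 2 of its 4 spots well above background on tumor 2.

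The other 3 members had no tumor array with a measured level. let-7f, which differs from let-7a by G12A and shares 1 of its clusters, read 0.76, 1.29 and 0.62 in the tumors, at most 1 of its 4 spots being well above background on any of them. let-7g read 1.13, 0.44 and 1.96, also with at most 1 such spot. miR-98 read 0.44, 0.57 and 0.38, with none. These 3 have only an upper bound in the tumors. Spots of a member agreed less on the tumor arrays than on the gland arrays, with SDs of 0.09 to 2.79 and a median of 0.45, against a median of 0.05 in the glands.

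With the array median as scale, the 6 members measured on 2 or 3 tumor arrays were called lower by limma in the tumors than in the mean of the 3 gland strains, where 52.5% of the 261 miRNAs tested were lower and 90.4% were called in some direction. let-7f, let-7g and miR-98 were called lower as well, but they passed the filter through the gland arrays alone, where they are high, so these calls are no support for a difference. When only the 15 miRNAs well above background on every array were tested, 4 members, let-7a to let-7d, remained and all 4 were called. How many of those 15 were called is not given here, so these 4 calls have no share beside them. The log2 difference was -0.70 for let-7b (standard error 0.23, adjusted p = 0.0133), -1.65 for let-7c (standard error 0.18, adjusted p = 5.34e-06), -2.89 for let-7d (standard error 0.36, adjusted p = 1.75e-05) and -3.42 for let-7a (standard error 0.23, adjusted p = 1.11e-07), with Benjamini-Hochberg adjustment. For let-7e and let-7i, measured on 2 of the 3 tumor arrays, it was -2.13 (standard error 0.30) and -3.12 (standard error 0.32). Where no tumor array measured a member, the fold is a lower bound, each tumor array being placed at the dimmest level that any miRNA well above background had there, or at the member's own level where that was higher. On that basis let-7f was at least 62.3-fold lower in the tumors, let-7g at least 27.1-fold and miR-98 at least 3.02-fold. For these 3, limma gave adjusted p = 7.98e-11, 7.96e-09 and 4.52e-08 on the tumor readings themselves, which were not well above background. Those p-values do not test the bounds and are no support for a difference. Of the 4 members measured on every array, let-7a, let-7c and let-7d were lower on every tumor array than on any gland array and let-7b was not, and 46.4% of all miRNAs tested were so arranged.

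Against the FVB glands alone, the strain of the tumors, limma called the same 6 measured members lower, where 52.5% of the 261 miRNAs were lower. The differences were -1.22 for let-7b, -2.20 for let-7c, -2.72 for let-7e, -3.49 for let-7d, -3.51 for let-7i and -3.96 for let-7a. let-7f was at least 83.2-fold lower, let-7g at least 43.3-fold and miR-98 at least 3.39-fold. All 3 tumor arrays were below both FVB arrays for let-7a, let-7b, let-7c and let-7d, an order that 53.3% of all miRNAs tested had too. With only the FVB and tumor arrays in the fit, which leaves 5 arrays, 6 members passed the filter and 5 were called, all but let-7b at -1.22 (adjusted p = 0.135, limma). The share of all miRNAs called in that fit is not given here.

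The size and for most members the sign of these differences depended on the scale, and on the tumor arrays, with at most 64 of 334 miRNAs well above background, the array median lay among signals that were not. On the 75th percentile the median over all miRNAs tested moved from -0.83 to 2.14, and let-7b and let-7c came out 2.28 and 1.33 higher in the tumors than in the glands. On that scale limma called both of them higher (adjusted p = 7.27e-08 and 1.56e-05). let-7f and let-7g were lower in each of the 24 fits that tested them. They entered these fits through the gland arrays, where they are high, and the fits share arrays. The count is therefore no support for a difference. Among the scalings of the green signal their smallest bounds, under quantile normalization, were 6.58-fold and 3.12-fold. With green over red as the value the log2 differences were far smaller, at -0.88 for let-7f and -0.89 for let-7g. For miR-98 no fold can be given on the 75th percentile, the median of measured miRNAs or the quantile scale, where the bound falls below 1.

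**Figure D3:**
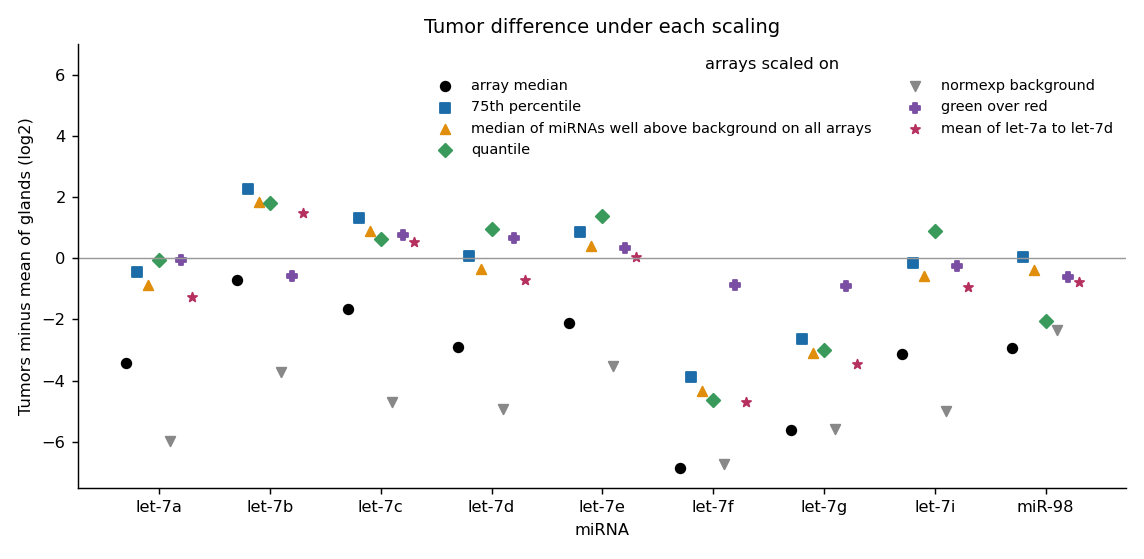
Log2 difference of each family member between the 3 C3(1)/Tag tumor arrays and the mean of the 3 gland strains under 7 ways of scaling or correcting the arrays, fitted with limma. let-7f and let-7g lie below 0 under all 7, whereas let-7b runs from below 0 to 2.28, and the points of let-7f, let-7g and miR-98 rest on tumor signals that were not well above background.

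The order among members within an array does not rest on that scale. Relative to the mean of let-7a, let-7b, let-7c and let-7d on the same array, let-7b rose from between -0.13 and 0.08 on the gland arrays to 1.38, 1.53 and 1.35 in tumors 1 to 3. let-7c went from 0.56 to 0.60 in the glands to 0.85 to 1.43 in the tumors. let-7a went the other way, from 0.40 to 0.53 in the glands to -0.97 to -0.70 in the tumors, as did let-7d, from -1.11 to -0.87 to -2.26 to -1.41. For these 4 members tumors and glands did not overlap. The share of all miRNAs so arranged on this scale is not given here. The 4 are themselves the reference, so a rise of 1 of them lowers the others.

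With arrays scaled on that mean, a choice made after the data were seen, limma gave let-7b a difference of 1.47 between tumors and glands (standard error 0.18, adjusted p = 7.15e-06), let-7c 0.52 (standard error 0.20, adjusted p = 0.0255), let-7d -0.72 (standard error 0.23, adjusted p = 0.00913) and let-7a -1.26 (standard error 0.18, adjusted p = 2.89e-05). These 4 are tied together, since the scale is their own mean. The median over all 261 miRNAs tested was itself 1.33 on that scale. let-7b lay near that median and let-7c, let-7d and let-7a lay below it. The share of all miRNAs called on that scale is not given here. let-7e differed by 0.04 (95% interval -0.43 to 0.51) and was not called. let-7f was at least 13.9-fold lower relative to that mean and let-7g at least 6.05-fold. The log2 signal of let-7a over let-7f was 0.37 to 0.85 on the gland arrays and, with let-7f at its bound, at least 2.71, 2.16 and 4.28 on the tumor arrays.

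**Figure D4:**
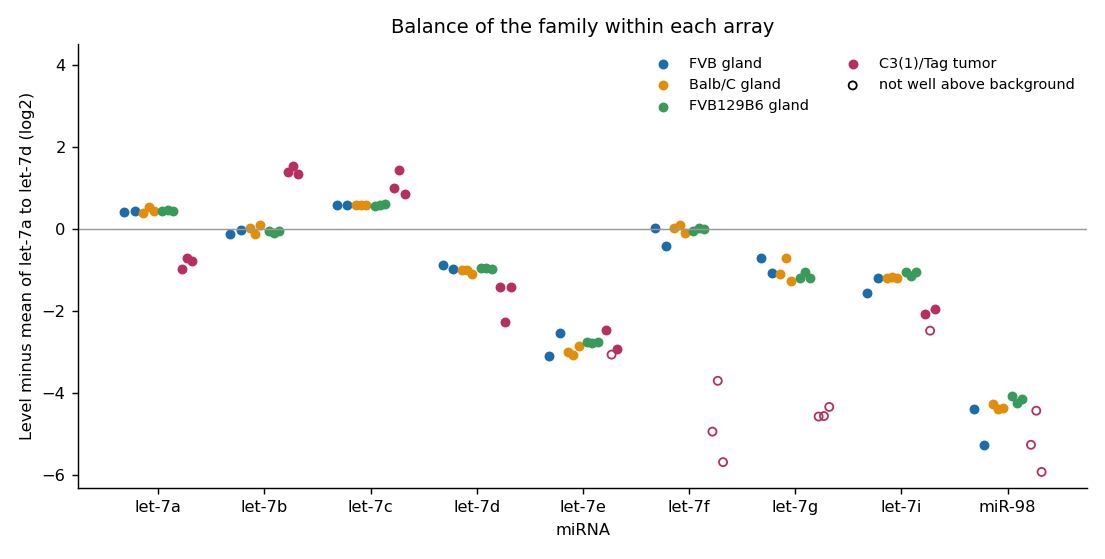
Level of each family member minus the mean level of let-7a to let-7d on the same array (log2), for 8 gland and 3 tumor arrays. Points are arrays and open points were not well above background, and let-7b lies at 1.35 to 1.53 on the tumor arrays against -0.13 to 0.08 on the gland arrays, with let-7f moved the other way.

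Among the miRNAs with a mean gland level above 6 and well above background on each of the 8 gland arrays, 39 in number, the 5 smallest differences belonged to family members. They were those of let-7b, let-7c, let-7d, let-7i and let-7a, and the next was miR-107 at -3.45. The median difference of the 39 was -5.62, that of the 7 members among them -3.12 and that of the other 32 -6.26. Of the 39, 8 were well above background on all 3 tumor arrays, 4 of them family members, and 17 on none, among them let-7f and let-7g. The limit of 6 was set after the data were seen, and no test was made of this order.

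**Figure D5:**
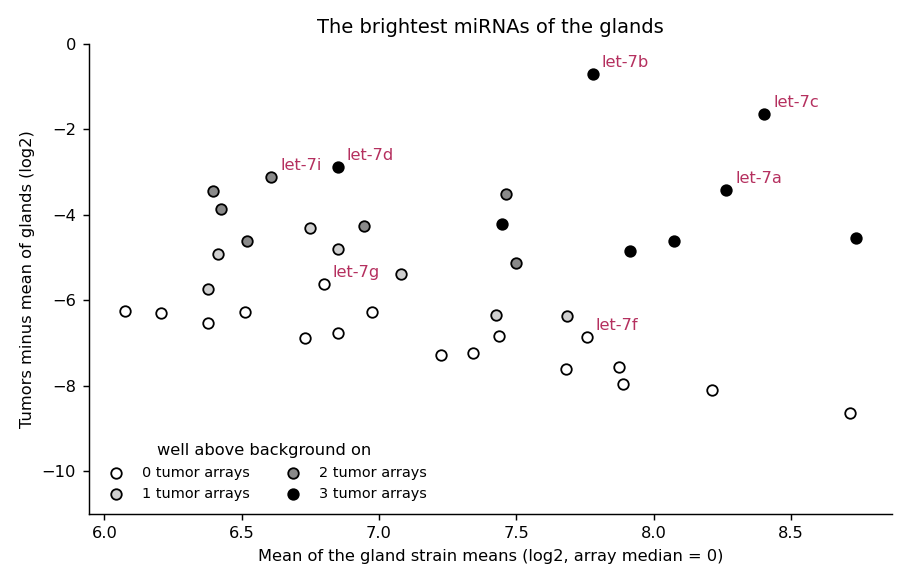
Log2 difference between tumors and the mean of the gland strains against the mean gland level (array median 0) for the 39 miRNAs with a gland level above 6. Shading gives the number of tumor arrays on which a miRNA was well above background, and the family members are named, with let-7b at -0.70 and let-7f among the 17 miRNAs measured on no tumor array.

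The tumor differences can be set beside the number of G or C bases that the probe pairs with. That number is 10 in let-7b, 9 in let-7c, let-7d and let-7i, 8 in let-7a and let-7g, and 7 in let-7f, while the differences of these members with the array median as scale run from -0.70 for let-7b over -1.65, -2.89 and -3.12 for the next 3 and -3.42 for let-7a, to the bounds of let-7g and let-7f. let-7e, also with 9, differed by -2.13. miR-98, with 7, is out of this order, since its bound is 3.02-fold and its measured difference, on signals not well above background, was -2.93. Among the 32 other miRNAs bright in the glands, counted over the first 21 probe bases, the median difference was -6.45 for the 4 with 8 or fewer, -6.52 for the 10 with 9 and -4.82 for the 18 with 10 or more. Of these, 2, 8 and 5 in that order were well above background on no tumor array, so the medians rest in part on signals that were not. The part of base composition, slide or program version in the tumor result was not tested.

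The neighbours of the family in its shared transcripts were scarcely measured in the tumors. miR-99a, miR-99b and miR-100 were well above background on 0 of 3 tumor arrays, miR-125b on 1 and miR-125a on 2, whereas all 5 were on all 8 gland arrays. The summed levels of the tissue lists in the tumors are given with no test. Epithelial miRNAs summed to 4.26 to 4.68 in the tumors against 8.06 to 9.80 over the glands, with 1 to 4 of 7 well above background on a tumor array. Stromal miRNAs summed to 3.35 to 4.39 against 9.12 to 10.21, and leukocyte ones to 2.57 to 3.88 against 5.27 to 8.40. On a tumor array 1 to 2 of the 4 stromal and 0 to 1 of the 4 leukocyte miRNAs were well above background. Skeletal muscle miRNAs summed to 1.73 to 4.74 in the tumors, which overlapped with the 3.64 to 6.02 of the FVB glands and lay below the 8.45 to 9.97 of the other glands. Only 0 to 2 of these 3 were well above background on a tumor array, so that overlap rests in part on signals that were not. Of the red cell miRNAs, 0 of 3 were well above background on any tumor array. The part of tissue makeup in the tumor differences of the family was not tested.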

How the data were processed

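For each of 11 arrays the authors deposited scanner output of the Agilent Feature Extraction program, with green (Hy3) and red processed intensity per spot after background subtraction and dye normalization within the array, and a log2 table of the 1336 plus-strand mouse spots. The deposited log2 values equalled the log2 green intensity after 1 constant per array (SD of the difference 0 on every array), the authors' global median normalization. No mouse spot was saturated in green. The genome build of the probes is not given in the sources used here.

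From each log2 green intensity the array median over the mouse spots was subtracted, spots marked as outliers were dropped and the rest averaged. A miRNA was tested when at least 50% of its 4 spots were well above background on at least 3 arrays of the fit, 261 miRNAs in both fits. This stands in for the detection calls of the study's methods, which cannot be repeated from these values. Strains were compared over the 8 gland arrays and tumors over all 11, with limma 3.58.1 in R 4.3.3 and Benjamini-Hochberg adjustment at 0.05. The number of arrays limits the precision, and there is no counting depth for arrays. Tables and figures were made with Python 3.11.15, numpy 2.4.6, pandas 2.3.3, scipy 1.17.1 and matplotlib 3.10.9.

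The text names all members, the neighbours miR-99a, miR-99b, miR-100, miR-125a and miR-125b, and the 5 other miRNAs closest to the family in the glands, with lists of tissue miRNAs, of which miR-133a and miR-142-3p had no probe of that name. Members and lists were chosen with earlier results of these data known. Sequences and hairpin positions are from RefSeq GRCm38.p6, in which 230 of 334 miRNAs matched a mature sequence by probe. G or C bases were therefore counted on the probes. Bounds are described with their values. Alternatives were other scalings, background correction by normexp (offset 50), the deposited log2 table, other filters, a floor, outlier spots kept, green over red, the replicate number as a block, 2 Balb/C arrays averaged, other sets of arrays in the fit and each array left out. On simulated data with 50 changed miRNAs, the Balb/C and FVB contrast found 52% of log2 changes of 1 and 88% of 2, and the contrast of tumors with glands 64% and 98%, with 0 of the wrong sign. The simulated noise of a miRNA had the same spread on every array, whereas spots agreed less on the real tumor arrays. Only 50 of 261 miRNAs were changed, so these rates do not carry over to the real tumor contrast.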

Additional observations from a re-analysis of the deposited data

Results flagged for a closer look

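The red channel lies outside the comparisons above, since Hy3 is the 1 dye named for the samples, and the RNA it holds is not given in the sources used here. It carried signal for most miRNAs on the gland arrays, where 285 to 296 of the 334 were well above background in red on an array. The family was among them, with 9 of 9 members so on all 8 gland arrays. On the tumor arrays 6 of 9 were so on all 3, all but let-7f, let-7g and miR-98, and 47 to 61 of the 334 on each. How many of the 334 were so on all 3 is not given here. let-7b had red intensities of 43200 to 82650 on the gland arrays and 11777.5 to 24150 on the tumor arrays, and let-7f 39175 to 123000 and 391.75 to 1119.5. The source of the red signal was not tested.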

How the results depend on the processing

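Scaling, background correction, the channel and the arrays in the fit each changed calls, signal over background limits the tumor values, and the cause of a change was not tested unless one is named. The deposited log2 table, no filter on background, a floor and keeping outlier spots moved no count of members called by over 1.5 times. Replicate numbers gave no clear sign of pairs, which does not exclude pairing. The mean correlation of deviations was 0.044 (-0.28 to 0.42) over 15 pairs with the same number and -0.022 (-0.51 to 0.28) over 30 others. With the replicate number as a block the members called were 6 in the F-test, 7 for Balb/C minus FVB, 7 for FVB129B6 minus FVB, 0 for Balb/C minus FVB129B6, and 9 in both tumor comparisons. Tumor counts here and below can include let-7f, let-7g and miR-98, which entered through the gland arrays alone, and those calls are no support for a difference. In the main fit of tumors against glands 90.4% of the 261 miRNAs were called in some direction. The scaling on let-7a to let-7d was chosen after the data were seen, and all other alternatives were planned. For Balb/C minus FVB, 8 members became 0 with the 75th percentile, 1 with the median of measured miRNAs (those well above background on all arrays), 0 with quantile, 0 with normexp, 1 with green over red and 1 with all 11 arrays in the fit, where the tumors enter the spread (limma gave 4, 4, 3, 0, 3 and 6 at an unadjusted p under 0.05). For FVB129B6 minus FVB, 7 became 2, 0, 1, 0, 1 and 2 in the same order (5, 3, 2, 2, 2 and 5 unadjusted), and for the F-test over strains 7 became 1, 0, 0, 0, 1 and 1 (3, 1, 2, 0, 2 and 5 unadjusted). With each array left out these counts were 4 to 7, 5 to 7 and 3 to 7, and those of the tumor comparisons 8 to 9 (glands) and 9 (FVB). Without an FVB array, the remaining one is taken to vary as other groups do. Balb/C minus FVB129B6 stayed at 0 in all alternatives run. For tumors minus glands, 9 became 4 when only miRNAs well above background on every array were tested (4 members tested). It became 5 with green over red, of which 2 were higher in the tumors and 3 lower. Other scalings also mixed directions, with 3 called higher and 3 lower on the 75th percentile and 5 higher and 3 lower with quantile. For tumors minus FVB, 9 became 5 with the 75th percentile and 5 with the median of measured miRNAs, 2 higher and 3 lower on each. It became 4 with the filter on every array and 4 with green over red, the latter 1 higher and 3 lower. With only FVB gland and tumor arrays it was 5 (of 6 tested).

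Signs that turned were as follows. For Balb/C minus FVB, normexp gave 0.14 for let-7f, 0.11 for let-7i, 0.47 for miR-98, 0.74 for miR-99a, 0.85 for miR-100 and 0.54 for miR-125b, the last 3 called higher. miR-98, miR-99a, miR-100 and miR-125b were 0.10, 0.27, 0.42 and 0.30 with the 75th percentile, 0.11, 0.29, 0.44 and 0.32 with the median of measured miRNAs, and 0.22, 0.27, 0.49 and 0.36 with quantile. Green over red gave 0.18, 0.27 and 0.67 for the last 3, miR-125b called higher, and averaging 2 Balb/C arrays 0.0016 for miR-100. For FVB129B6 minus FVB, quantile gave 0.062 for let-7a and 0.096 for let-7c, and normexp 0.099 for let-7f and 0.13 for let-7i. miR-98, miR-99a and miR-100 were 0.19, 0.23 and 0.47 with quantile, 0.54, 0.55 and 0.75 with normexp (the last 2 called higher), 0.20, 0.11 and 0.36 with the 75th percentile, and 0.36, 0.26 and 0.52 with the median of measured miRNAs. miR-125b was 0.094, 0.21 and 0.13 with quantile, normexp and that median, and green over red gave 0.062, 0.15 and 0.51 for miR-99a, miR-100 and miR-125b. With each array left out, miR-98 ran from -0.69 to 0.020 (Balb/C) and -0.52 to 0.19 (FVB129B6), miR-100 from -0.20 to 0.19 and -0.20 to 0.20, and miR-125b from -0.38 to 0.12 (Balb/C). For tumors minus glands, let-7b, let-7c and let-7e were 2.28, 1.33 and 0.85 with the 75th percentile, 1.83, 0.88 and 0.40 with the median of measured miRNAs, 1.80, 0.63 and 1.37 with quantile, and 1.47, 0.52 and 0.036 scaled on let-7a to let-7d. let-7b and let-7c were called higher under all 4, and let-7e with the 75th percentile and quantile. let-7d and miR-98 were 0.087 and 0.048 with the 75th percentile, neither called. let-7d and let-7i were 0.96 and 0.89 with quantile, both called higher. let-7c, let-7d and let-7e were 0.74, 0.66 and 0.34 with green over red, and let-7c and let-7d were called higher. For tumors minus FVB, the same 4 scalings gave 2.02, 1.04 and 0.52, then 1.74, 0.76 and 0.24, then 1.68, 0.64 and 1.06, then 1.49, 0.52 and 0.00072 for let-7b, let-7c and let-7e. Here let-7b was called higher under all 4, let-7c with the 75th percentile and the median of measured miRNAs, and let-7e under none. miR-98 was 0.15 with the 75th percentile and not called. let-7d and let-7i were 0.70 and 0.80 with quantile, both called higher. let-7c, let-7d and let-7e were 0.61, 0.42 and 0.14 with green over red, and of these let-7c alone was called higher.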
